A study of Mus musculus with 6 samples.

Results

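Heat shock chaperones are proteins that bind unfolded or aggregated proteins and help them fold, be held soluble or be degraded. The 10 genes described here were chosen by symbol, with earlier results of these data known, though the rule itself uses no measured value. They were found among the 55401 genes of the count table through their Ensembl identifiers. They are Hspa1a, Hspa1b, Dnajb1, Hsph1, Hsp90aa1, Hspb1 and Bag3, which heat and other protein-damaging stress induce, and Hspa8, Hspd1 and Hspe1, which most cells express constitutively. The split into 7 stress-inducible and 3 constitutive genes follows textbook knowledge, and Hsp90aa1 and Hsph1 have a considerable basal level as well. The question was whether these transcripts differed between microglia of lupus-prone MRL/lpr mice and of MRL/mpj mice, and whether the inducible and the constitutive genes differed alike.

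On the MRL background, the lpr mutation impairs Fas, a death receptor gene, and mice with it (MRL/lpr) develop lupus-like autoimmunity, whereas MRL/mpj mice have the background alone. Each strain gave 3 libraries of microglia from the brains of untreated mice aged 6 weeks. Per the study's methods, brain tissue was digested warm with collagenase and DNase under shaking, a pellet with the microglia was obtained on a Percoll gradient, and cells were selected with CD11b beads, a surface protein that other myeloid cells carry too. The study describes as many mice as libraries in each strain, but the labels do not tie a library to 1 mouse, so the p-values are read as measuring the spread between these libraries only.

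As background, the HSP70 proteins encoded by Hspa1a, Hspa1b and Hspa8 bind exposed hydrophobic stretches in cycles driven by ATP. J-domain proteins such as Dnajb1 bring them substrates, and nucleotide exchange factors such as Hsph1 and Bag3 release those substrates again. The transcription factor HSF1, which is held inactive in unstressed cells, binds arrays of inverted nGAAn units, called heat shock elements, in front of the inducible genes. In microglia, as in other brain cells, inducible HSP70 is known as a marker of proteotoxic stress, and enzymatic preparation of brain cells at warm temperature is known to induce heat shock and immediate early genes.

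The bases in front of the gene starts are shown because they place the members by whether such an element stands close to the start. RefSeq promoter sequences (GRCm38.p6) were matched for 8 of the 10 members, with 11 start sites in all. Hspa8 and Hsp90aa1 were not matched. Each sequence holds the 250 bases before the start, 5′ to 3′ on the gene's own strand, and capitals mark the letters GAANNTTC or TTCNNGAA, which are 2 inverted units in either order and read the same on both strands. The windows lie at chr17:34972157-34972406 (minus strand) for Hspa1a, at chr17:34959239-34959488 (minus strand) for Hspa1b and at chr5:135887669-135887918 (plus strand) for Hspb1.
Hspa1a: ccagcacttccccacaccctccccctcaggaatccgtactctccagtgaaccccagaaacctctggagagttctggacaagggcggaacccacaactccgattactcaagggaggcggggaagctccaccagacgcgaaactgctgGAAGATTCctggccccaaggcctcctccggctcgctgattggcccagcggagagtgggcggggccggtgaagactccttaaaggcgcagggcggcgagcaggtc
Hspa1b: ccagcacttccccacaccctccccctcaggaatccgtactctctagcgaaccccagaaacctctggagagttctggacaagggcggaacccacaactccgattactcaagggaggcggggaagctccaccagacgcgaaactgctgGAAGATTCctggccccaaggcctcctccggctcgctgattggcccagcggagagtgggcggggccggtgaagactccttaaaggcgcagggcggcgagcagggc
Hspb1: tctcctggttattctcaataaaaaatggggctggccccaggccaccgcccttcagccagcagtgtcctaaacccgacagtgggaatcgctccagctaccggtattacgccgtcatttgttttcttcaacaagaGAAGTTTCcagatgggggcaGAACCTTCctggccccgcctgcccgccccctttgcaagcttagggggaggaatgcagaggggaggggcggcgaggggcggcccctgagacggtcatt

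The Hspa1a and Hspa1b windows differed at 3 of 250 bases, and in both the motif began at position -104 from the start. In Hspb1 it began at positions -117 and -97. Hsph1, Hspd1 and Hspe1 also held it. By window, 7 of the 11 member windows (63.6%) had a 2-unit motif, against 4218 of all 32851 promoter windows of the same length (12.8%). These 7 come from 6 members, with the stretch shared by Hspd1 and Hspe1 and that of Hsph1 each counted in 2 windows. A run of 3 units (GAANNTTC with NNGAA directly after it, or TTCNNGAA with NNTTC directly after it, both of which contain the 2-unit letters) was found in Hspd1 and Hspe1, and in 153 of all windows (0.466%). The Hspd1 window at chr1:55088244-55088493 held no motif. The other Hspd1 window and that of Hspe1 share 1 stretch of such units, at chr1:55088053-55088082 on the plus strand, which is the strand of Hspe1.
Hspe1: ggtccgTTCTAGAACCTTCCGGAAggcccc

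None of these letters stood in the windows of Bag3 or Dnajb1, which says nothing of elements elsewhere. A match is a description of the letters only.

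The library facts that touch the members are these. Total counts per library ran from 45481609 to 49846634, and 4 counts appear to stand for 1 read pair. MRL/lpr replicate 3 stood apart. The noncoding gene CT010467.1 took 6.38% of its counts, against 0.169% to 0.458% elsewhere, and the library differed beyond counting noise from the other MRL/lpr libraries in 56.0% and 56.6% of well covered genes, against 24.7% between those 2. Fas had 282 to 461 counts in MRL/lpr and 362 to 432 in MRL/mpj, which overlapped, and a count over the whole gene does not tell intact from mutant transcripts and so does not check the labels. Mitochondrial genes took 3.06% to 3.49% of counts in MRL/lpr and 5.84% to 6.38% in MRL/mpj. The study's methods describe female mice, but 4 genes of the Y chromosome (Kdm5d, Eif2s3y, Ddx3y and Uty) summed to between 8408 and 15046 counts in every library, while Xist, which marks female cells, had 8886 to 11319 counts in MRL/lpr and 27 to 38 in MRL/mpj. Sex and strain therefore cannot be told apart for any value below. All 8 microglia markers were detected, with a sum of 21305 to 24472 CPM (counts scaled to library depth) in MRL/lpr and 23792 to 24562 in MRL/mpj. In bulk samples, fewer cells of a type and less RNA per cell cannot be told apart.

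Of the 10 chaperone genes, 9 rose in MRL/lpr microglia, at an adjusted p under 0.05 in edgeR's quasi-likelihood test over 19554 genes. The fold of mean CPM among the 9 ran from 1.47 in Hspe1 to 2.40 in Dnajb1. The tenth gene, Hspb1, did not pass, and all 10 had a log2 fold change above 0. Over all genes tested, 20.2% were called in either direction, 11.1% as higher and 9.06% as lower in MRL/lpr. With a log2 fold change of at least 1 in addition, Dnajb1, Hspa1a and Bag3 remained called as higher, against 4.67% of all genes higher and 3.66% lower. The same 9 members had no overlap between the strains' CPM values with MRL/lpr above, which was true of 19.6% of all genes. DESeq2 called 9 members as higher, against 9.92% of the 23750 genes it tested. The median log2 fold change was 0.98 in the stress-inducible and 0.69 in the constitutive genes, beside -0.01 over all genes. With scaling by library size in place of TMM the median over all genes shifted to -0.13, with 1634 genes higher and 2790 lower against 2178 and 1772, and 9 members were still higher.

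**Figure D1:**
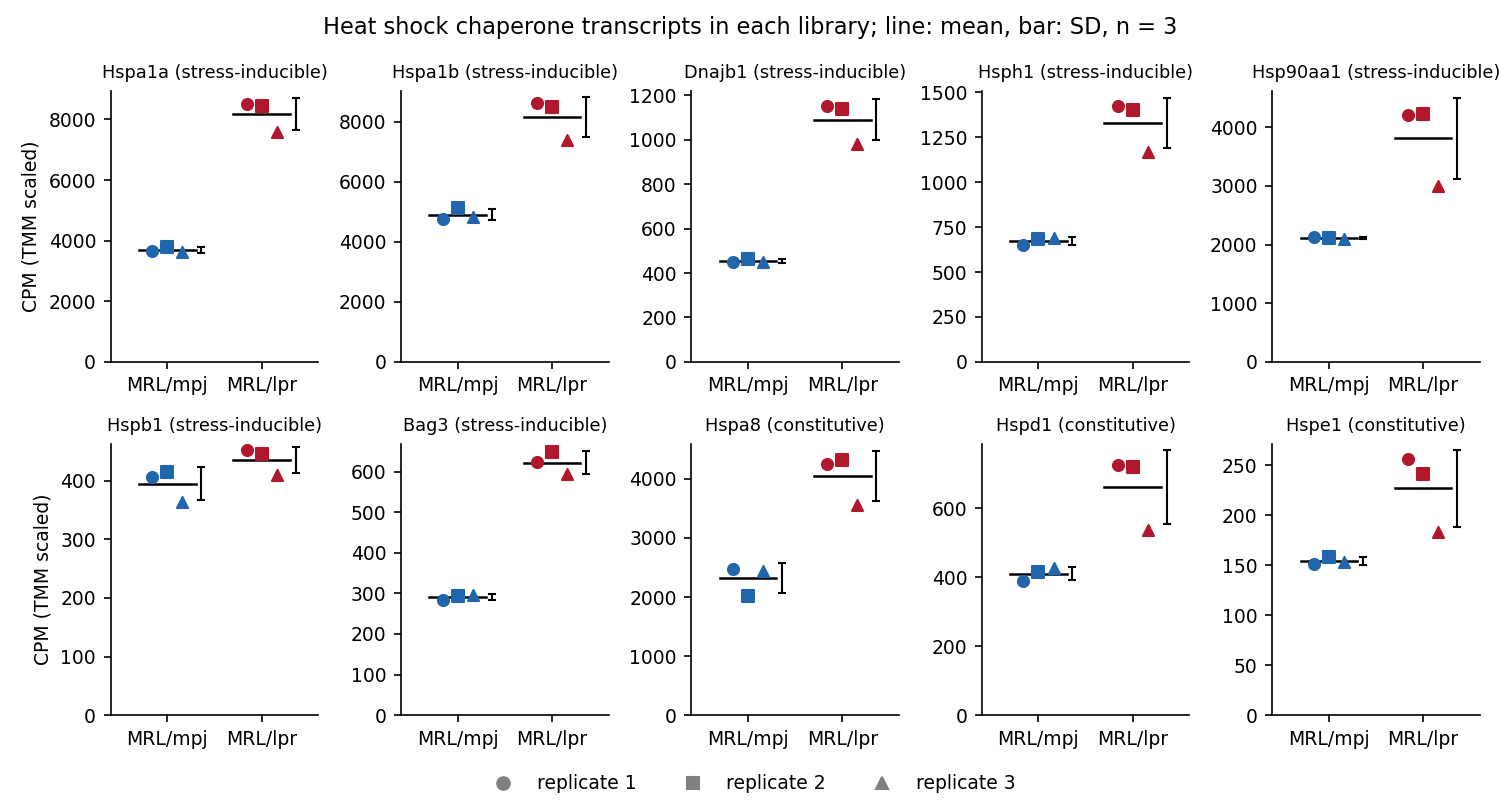
CPM of each chaperone gene (vertical axis, TMM scaled, starting at 0) in the 3 MRL/mpj (blue) and 3 MRL/lpr (red) libraries, with the mean as a line and the SD as a bar. In 9 of the 10 panels all red points lie above all blue points, the exception is Hspb1, and MRL/lpr replicate 3 (triangle) is the lowest red point in every panel.

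Among the HSP70 genes, Hspa1a encodes the main stress-induced cytosolic form (ENSMUSG00000091971, chr17:34969190-34972156, minus strand, GRCm38). It had 8508, 8445 and 7574 CPM in MRL/lpr replicates 1 to 3 and 3646, 3787 and 3637 CPM in MRL/mpj replicates 1 to 3. The strains stood far apart, and replicate 3 was the lowest MRL/lpr library. The means were 8176 ± 522 and 3690.2 ± 84.1 CPM (SD, n = 3), a fold of 2.22. The log2 fold change was 1.15 (SE 0.0629, adjusted p = 3.11e-06 in edgeR). Annotated on the opposite strand over 2225 of its bases is Gm20481, which had at most 24 counts in any library.

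Hspa1b encodes a nearly identical HSP70 protein (ENSMUSG00000090877, chr17:34956436-34959238, minus strand). Its CPM values were 8607, 8478 and 7374 in MRL/lpr and 4763, 5129.6 and 4831 in MRL/mpj, so that the strains stood apart again, with the lowest MRL/lpr value in replicate 3. The means were 8153 ± 678 and 4908 ± 195 CPM (SD, n = 3). The fold was 1.66 and the log2 fold change 0.73 (SE 0.0714, adjusted p = 9.99e-05 in edgeR).

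The copies lie 9951 bases apart and share sequence: 1074 of the 2818 windows of 150 bases in the Hspa1a transcript (38.1%) occur unchanged in that of Hspa1b, which is 40.5% of the 2654 windows there. How the authors' counting assigned read pairs from such windows is not given in the sources used here, so the split between the copies is uncertain, whereas their sum does not depend on that split. Pairs left out as ambiguous would lower both copies and their sum, and pairs counted for both copies would raise them. The sum was 17115, 16923 and 14947 CPM in MRL/lpr and 8409, 8917 and 8469 CPM in MRL/mpj. Summed before the fit, the pair had a log2 fold change of 0.93 (SE 0.0666, adjusted p = 1.42e-05 in edgeR), which is under the fold minimum that Hspa1a alone passed.

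The balance between the copies as counted differed too, and it rests on the uncertain split. The ratio of Hspa1a to Hspa1b was 0.988, 0.996 and 1.03 in MRL/lpr and 0.766, 0.738 and 0.753 in MRL/mpj. The strain means were 1.004 ± 0.0205 and 0.752 ± 0.0137 (SD, n = 3), and the ranges did not overlap. An exact permutation test over 3 against 3 libraries cannot give a p under 0.1, and none was run on this ratio.

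Hspa8 encodes HSC70, the constitutive cytosolic HSP70 (ENSMUSG00000015656, chr9:40800984-40810087, plus strand). Its CPM values were 4255, 4327 and 3557 in MRL/lpr and 2482, 2021 and 2447 in MRL/mpj. The strains did not overlap, and here the MRL/mpj libraries also spread, with replicate 2 the lowest. The means were 4046 ± 426 and 2317 ± 257 CPM (SD, n = 3), a fold of 1.75, with a log2 fold change of 0.80 (SE 0.100, adjusted p = 0.000479 in edgeR). It shared none of the 2818 windows of 150 bases of Hspa1a. The small nucleolar RNA genes Snord14c, Snord14d and Snord14e lie within Hspa8, with 510 to 1228 counts each per library.

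Per Hspa8 CPM, the summed Hspa1a and Hspa1b stood at 4.02, 3.91 and 4.203 in MRL/lpr and at 3.39, 4.41 and 3.46 in MRL/mpj. These ratios overlapped between the strains, with means of 4.05 ± 0.147 and 3.75 ± 0.572 (SD, n = 3). Inducible and constitutive cytosolic HSP70 thus rose by amounts that these libraries did not separate, and the spread came mainly from Hspa8 in MRL/mpj replicate 2.

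Among the partners of HSP70, Dnajb1 had the highest fold of all 10 genes. It encodes the J-domain protein HSP40, which stimulates the ATPase of HSP70 and also takes part in shutting HSF1 off (ENSMUSG00000005483, chr8:83608193-83612653, plus strand). Its values were 1151, 1138 and 982 CPM in MRL/lpr and 452, 465 and 449 CPM in MRL/mpj. Even the lowest MRL/lpr library, replicate 3, had 2.11 times the highest MRL/mpj library. The fold of the means (1090.3 ± 94.0 against 454.9 ± 8.497 CPM, SD, n = 3) was 2.40, and the log2 fold change was 1.26 (SE 0.0722, adjusted p = 3.88e-06 in edgeR).

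Bag3 encodes a cochaperone that releases HSP70 clients and directs damaged proteins to autophagy (ENSMUSG00000030847, chr7:128523616-128546981, plus strand). It had 623, 649 and 593 CPM in MRL/lpr and 283, 293 and 295 CPM in MRL/mpj. The strains stood apart, and MRL/lpr replicate 3 reached 0.932 of the mean of the other two, the highest such ratio of the 10 genes. The means were 622 ± 28.2 and 291 ± 6.90 CPM (SD, n = 3), a fold of 2.14, with a log2 fold change of 1.10 (SE 0.0607, adjusted p = 3.26e-06 in edgeR). The annotated gene 2610306O10Rik overlaps it by 612 bases on the same strand and had 911 to 1294 counts per library.

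Hsph1 encodes HSP105, an HSP110 protein that acts as a nucleotide exchange factor for HSP70 and helps to dissolve aggregates (ENSMUSG00000029657, chr5:149614287-149636376, minus strand). Its values were 1422, 1399 and 1171 CPM in MRL/lpr and 650.3, 683 and 688 CPM in MRL/mpj. The groups stood apart, and the fold of the means (1330.4 ± 139 against 674 ± 20.2 CPM, SD, n = 3) was 1.98. Its log2 fold change of 0.98 (SE 0.0801, adjusted p = 3.15e-05 in edgeR) lay just under the fold minimum, and without MRL/lpr replicate 3 it was 1.07 (adjusted p = 3.29e-07 in edgeR).

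Hsp90aa1 encodes the stress-inducible cytosolic HSP90, which completes the folding of kinases, steroid receptors and other clients (ENSMUSG00000021270, chr12:110690605-110702728, minus strand). It had 4199, 4218 and 3001 CPM in MRL/lpr and 2125, 2115 and 2101 CPM in MRL/mpj. The MRL/mpj libraries were nearly level, whereas MRL/lpr replicate 3 reached only 0.713 of the mean of the other two, the lowest such ratio of the 10 genes. The means were 3806 ± 697 and 2114 ± 12.2 CPM (SD, n = 3), a fold of 1.80, and the log2 fold change was 0.85 (SE 0.122, adjusted p = 0.00173 in edgeR). Without that library it was 0.998 (adjusted p = 1.21e-07 in edgeR).

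Hspb1 encodes HSP25, the mouse small heat shock protein that holds unfolding proteins without ATP and stabilises actin filaments (ENSMUSG00000004951, chr5:135887919-135889563, plus strand). It had 452, 446 and 410.4 CPM in MRL/lpr and 406, 416 and 364 CPM in MRL/mpj. The strains overlapped, since MRL/lpr replicate 3 lay below MRL/mpj replicate 2. The means were 436 ± 22.4 and 395 ± 27.6 CPM (SD, n = 3), a fold of 1.10, and the log2 fold change of 0.14 (SE 0.0719, adjusted p = 0.216 in edgeR) did not pass. It was also the member with 2 separate 2-unit motifs in the window printed above.

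Hspd1 encodes HSP60, the mitochondrial chaperonin that encloses proteins for folding in the matrix (ENSMUSG00000025980, chr1:55077835-55088243, minus strand). Its values were 725, 718 and 536 CPM in MRL/lpr and 388, 414 and 426 CPM in MRL/mpj. The strains stood apart, with MRL/lpr replicate 3 at 0.743 of the mean of the other two. The means were 660.1 ± 107 and 409.7 ± 19.3 CPM (SD, n = 3), a fold of 1.61, and the log2 fold change was 0.69 (SE 0.111, adjusted p = 0.00233 in edgeR).

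Hspe1 encodes HSP10, the lid of that chaperonin (ENSMUSG00000073676, chr1:55088132-55091307, plus strand). It had 256, 241 and 183 CPM in MRL/lpr and 151, 158 and 153 CPM in MRL/mpj. All MRL/lpr libraries were higher, but replicate 3 only narrowly. The fold of the means (227 ± 38.7 against 154 ± 3.89 CPM, SD, n = 3) was 1.47, the lowest of the 9, with a log2 fold change of 0.56 (SE 0.114, adjusted p = 0.00758 in edgeR). Hspd1 and Hspe1 run in opposite directions from a common promoter and overlap by 112 annotated bases. With limma on log2(FPKM + 1) in place of counts, Hspe1 no longer passed (difference 0.42, adjusted p = 0.0733 in limma).

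**Figure D2:**
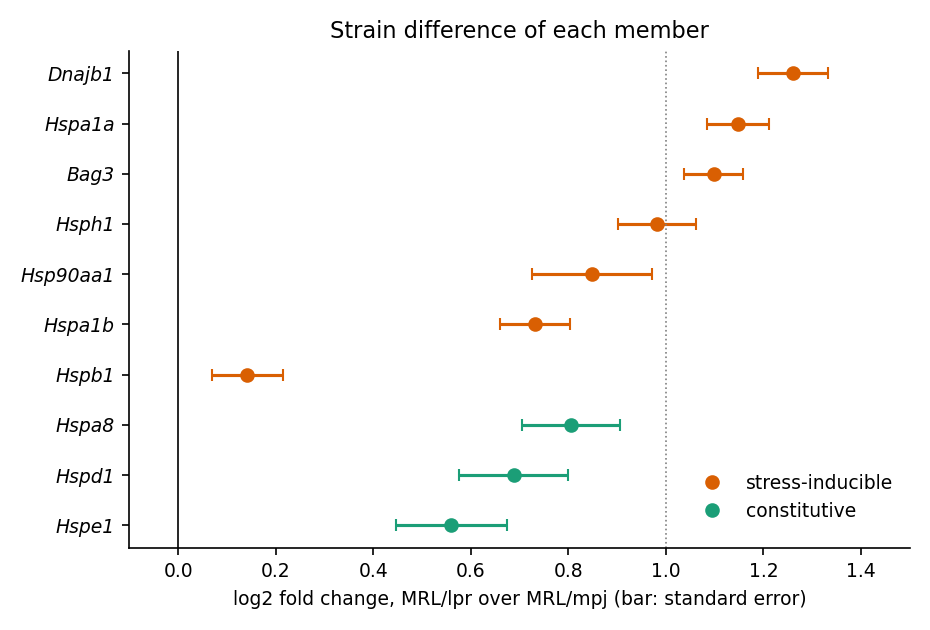
Log2 fold change of each chaperone gene (MRL/lpr over MRL/mpj, horizontal axis) with its standard error as a bar, inducible genes in orange and constitutive genes in green. The dotted line marks a log2 fold change of 1, which Dnajb1, Hspa1a and Bag3 exceed, and Hspb1 lies at 0.14, below all 3 constitutive genes.

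The inducible and constitutive classes were compared within each library as the mean log2 CPM of the 7 inducible genes minus that of the 3 constitutive genes. This difference was 1.13, 1.16 and 1.30 in MRL/lpr and 0.97, 1.07 and 0.93 in MRL/mpj. The strain means were 1.196 ± 0.09 and 0.99 ± 0.07 (SD, n = 3), so that the inducible class rose by 0.21 more than the constitutive class on the log2 scale, against a pooled SD between libraries of 0.08. The ranges did not overlap, but this is a description over few genes, and no test was made. The size turned on the members counted in each class. It was 0.20 from the fitted log2 fold changes, 0.10 with Hsp90aa1 and Hsph1 moved to the constitutive class, and 0.33 without Hspb1. Without MRL/lpr replicate 3 it was 0.16.

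The classes also overlapped gene by gene. Hspa8, a constitutive gene, had a log2 fold change of 0.80, above the 0.73 of the inducible Hspa1b and the 0.14 of Hspb1. The mitochondrial pair had the lowest log2 fold changes of the 9 genes that rose.

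Relative to the MRL/mpj mean, the inducible class stood at 0.96, 0.96 and 0.73 (log2) in MRL/lpr replicates 1 to 3 and the constitutive class at 0.82, 0.79 and 0.42. MRL/lpr replicate 3 was lower in both classes. In all 10 genes it lay below the other MRL/lpr libraries, at 0.713 to 0.932 of their mean. Without it, all 9 genes were called again, with log2 fold changes of 0.70 in Hspe1 to 1.34 in Dnajb1, and 4 passed the fold minimum.

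**Figure D3:**
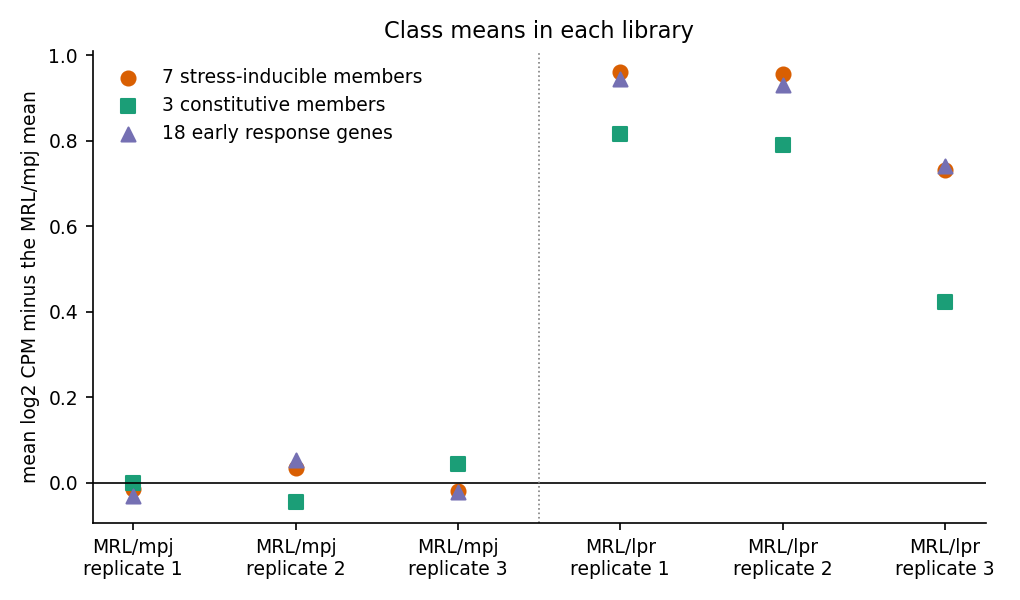
Mean log2 CPM minus the MRL/mpj mean (vertical axis) in each library for the 7 inducible genes (orange), the 3 constitutive genes (green) and the 18 early response genes described further on (purple). In MRL/lpr the constitutive class lies below the inducible class, at 0.42 in replicate 3, and the early genes lie beside the inducible class, at 0.94, 0.93 and 0.74.

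Levels of different genes were compared only per length, in the deposited FPKM (fragments per kilobase, scaled by depth). In MRL/lpr, Hspa1b (2494 ± 282 FPKM) and Hspa1a (2361 ± 222 FPKM) came first, and their ranges overlapped. Hsp90aa1 (832 ± 175 FPKM) and Hspa8 (807 ± 109 FPKM) followed and were not separated either. Then came Hspb1 (362 ± 29.7 FPKM) and Dnajb1 (292 ± 33.9 FPKM). Hspd1 (215 ± 40.9 FPKM) overlapped with Bag3 (208 ± 15.4 FPKM), and Hsph1 (157 ± 21.0 FPKM) with Hspe1 (132 ± 26.2 FPKM, all SD, n = 3). The inducible HSP70 pair was therefore more abundant per length than HSC70 in these preparations.

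In MRL/mpj the order was nearly the same, and so the high level of the inducible pair was not confined to MRL/lpr. Hspa1b had 1629 ± 65.8 FPKM and Hspa1a 1157 ± 27.0 FPKM, and these did not overlap. Hspa8 (501 ± 55.3 FPKM) and Hsp90aa1 (500.3 ± 2.71 FPKM) could not be ordered. Hspb1 followed at 357 ± 25.0 FPKM, Hspd1 at 144 ± 6.87 FPKM, Dnajb1 at 132 ± 2.53 FPKM, Bag3 at 106 ± 2.57 FPKM, Hspe1 at 97.2 ± 2.52 FPKM and Hsph1 at 86.2 ± 2.64 FPKM (SD, n = 3). Each of these neighbours was separated by range. Dnajb1 lay above Hspd1 in MRL/lpr and below it in MRL/mpj.

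**Figure D4:**
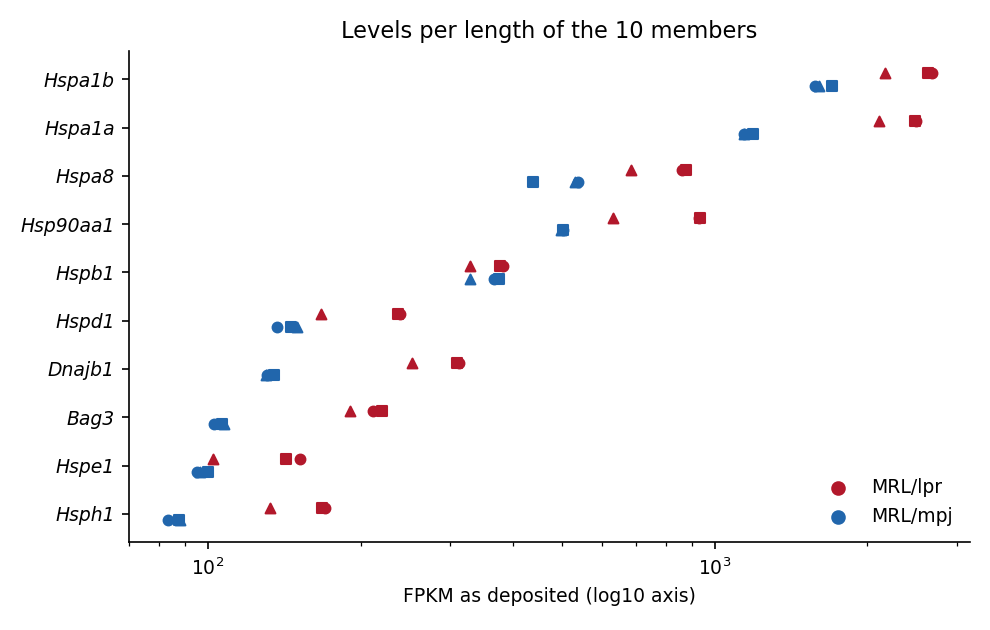
Deposited FPKM (horizontal log10 axis) of each chaperone gene in the MRL/lpr (red) and MRL/mpj (blue) libraries, with circles, squares and triangles for replicates 1, 2 and 3. The inducible pair Hspa1a and Hspa1b lies above 1000 FPKM in every library, and Hspb1 is the gene in which red and blue points overlap.

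As a share of the libraries, the 10 genes summed to 30199, 30060.3 and 25381 CPM in MRL/lpr and to 15346, 15482 and 15391 CPM in MRL/mpj. The means were 28547 ± 2743 and 15406 ± 69.2 CPM (SD, n = 3). Hspa1a and Hspa1b gave the larger part of the sum in every library.

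The remaining chaperone machinery was examined in 8 lists of 84 genes, of which 82 were tested. Most of them did not pass: 14 genes were higher (17.1%, against 11.1% of all genes tested), 9 were lower (10.98%, near the 9.06% of all genes) and 59 were not called, with a median log2 fold change of 0.02, beside -0.01 over all genes. Both counts depended on the scaling and on single libraries. Genes called higher numbered 11 with scaling by library size alone or limma on FPKM, and 19 without MRL/lpr replicate 3. Genes called lower numbered 14 with scaling by library size alone, and 5 without MRL/mpj replicate 1 or without MRL/mpj replicate 3.

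Among 11 HSP70 and HSP110 relatives, 3 were higher and 2 lower. Hspa5, the HSP70 of the endoplasmic reticulum known as BiP, rose from 2583 ± 127 to 3948 ± 500 CPM (log2 fold change 0.61, SE 0.0915, adjusted p = 0.00131 in edgeR). Hspa1l, whose annotated start lies 546 bases from that of Hspa1a on the opposite strand, had 47.5 ± 2.37 against 28.6 ± 4.64 CPM (log2 fold change 0.73, adjusted p = 0.00259 in edgeR). Hspa2 had a log2 fold change of 0.41 (adjusted p = 0.0120 in edgeR), with a call in 14 of 18 alternatives, lost among others without MRL/mpj replicate 1 or 3. Hspa12a, a distant relative, fell by 2.29 on the log2 scale from 29.7 ± 0.875 to 6.07 ± 0.595 CPM (adjusted p = 2.18e-06 in edgeR), and Hspa13 fell by 0.60 (adjusted p = 0.000553 in edgeR).

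Hsp90ab1, the constitutive cytosolic HSP90, rose with Hsp90aa1, from 1808 ± 34.3 to 2962 ± 354 CPM (log2 fold change 0.71, SE 0.0849, adjusted p = 0.000342 in edgeR). Hsp90b1, the HSP90 of the endoplasmic reticulum, had a log2 fold change of -0.13 (adjusted p = 0.358 in edgeR) and was named after its value was seen, as was the third gene of that list, Trap1, which did not pass either.

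Among 17 J-domain cochaperones, 4 were higher and 3 lower. Without MRL/lpr replicate 3, 6 were higher, and 1 was lower without MRL/lpr replicate 2, MRL/mpj replicate 1 or MRL/mpj replicate 3. Dnaja1, a partner of HSC70, rose from 428 ± 12.6 to 830.3 ± 130 CPM (log2 fold change 0.96, SE 0.106, adjusted p = 0.000241 in edgeR). Dnaja4 had a log2 fold change of 0.67 (adjusted p = 0.000563) and Dnajb4 of 0.66 (adjusted p = 0.00108, both in edgeR). Dnajc7 fell by 0.36 (adjusted p = 0.00503), Dnajb14 by 0.29 (adjusted p = 0.0197) and Dnajc10 by 0.28 (adjusted p = 0.0303, all in edgeR). Over 18 alternatives, Dnajc7 was called in all 18, Dnajb14 in 11 and Dnajc10 in 12. Dnajb6, the remaining gene called higher, was called in 7.

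None of the 8 subunits of the cytosolic chaperonin, which folds actin and tubulin, passed the test, and their median log2 fold change was 0.03. At an unadjusted p under 0.05, 1 of them (Cct5) was higher, and DESeq2 called 0. Of the other alternatives, 3 called 1 gene higher (the filter at 100 counts, counts divided by 4 and without MRL/lpr replicate 1) and 3 called 1 lower (scaling by library size, limma on FPKM and without MRL/lpr replicate 3). Of 8 small heat shock proteins tested, none rose, with 0 higher at an unadjusted p under 0.05 and 0 in DESeq2, and 2 fell, both at low levels. Cryab fell by 1.32 on the log2 scale from 9.65 ± 1.56 to 3.87 ± 0.336 CPM (adjusted p = 0.000859 in edgeR), and Hspb7 fell by 1.48 from 1.75 ± 0.119 to 0.623 ± 0.242 CPM (adjusted p = 0.0261 in edgeR). Hspb7 was called in 10 of 18 alternatives, and lost its call when any library but MRL/lpr replicate 2 was left out. Cryaa had no counts in any library. Of 21 cochaperones of HSP70 and HSP90, Fkbp5 rose (log2 fold change 0.57, adjusted p = 0.000306 in edgeR), Bag2 fell by 1.02 (adjusted p = 0.0133 in edgeR), and 19 did not pass.

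None of the 4 tested genes of the heat shock factor list passed in edgeR with TMM scaling or in DESeq2. They were Hsf1, Hsf2, Hsf4 and Hsbp1, which encodes a protein that binds such a factor and is not one itself. Of these genes, 1 was called lower with scaling by library size, and 1 (Hsf2) was lower at an unadjusted p under 0.05. Hsf1, which encodes the factor itself, had 34.9 ± 6.14 CPM in MRL/lpr and 34.5 ± 6.35 CPM in MRL/mpj (log2 fold change 0.02, SE 0.164, adjusted p = 0.962 in edgeR). Transcript levels of Hsf1 do not report its activity, which is set on the protein. Of 10 other heat-responsive genes, 5 rose and 1 fell, with a median of 0.39. Ubb, which supplies ubiquitin in stress, rose by a log2 fold change of 0.97 (adjusted p = 8.17e-06 in edgeR), and Ier5 by 0.88 (adjusted p = 2.91e-05 in edgeR). Mt2, a metallothionein gene, fell by 0.39 (adjusted p = 0.0485 in edgeR) but was called in 7 of 18 alternatives and in none that left out a library, and DESeq2 called 6 genes of this list higher and none lower.

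**Figure D5:**
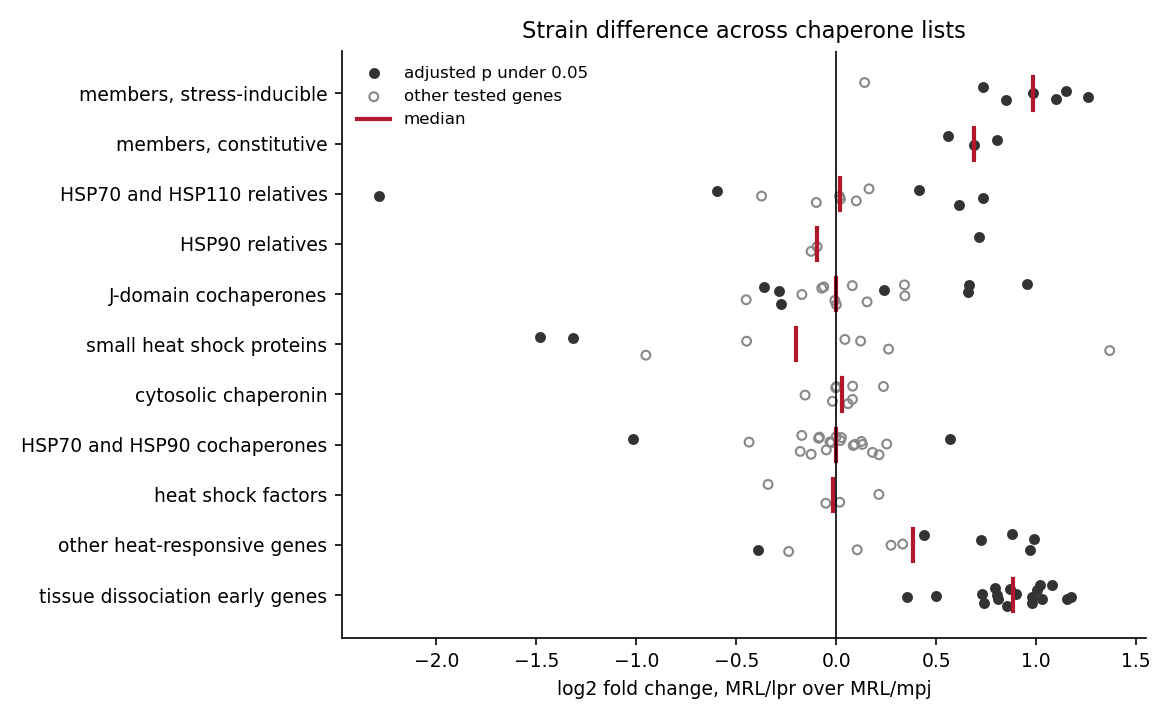
Log2 fold change (MRL/lpr over MRL/mpj, horizontal axis) of each tested gene in the 2 member classes, the 8 wider lists and the early response genes, with filled points for an adjusted p under 0.05 and a red bar at each list's median. Medians of the wider lists lie between -0.20 and 0.39, against 0.98 and 0.69 in the member classes and 0.88 in the early genes.

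Immediate early genes, which many brief stimuli induce within minutes and which warm tissue dissociation is known to induce, moved beside the chaperones. All 18 genes of a list of early response genes were called higher in MRL/lpr (16 to 18 under the alternatives), against 11.1% of all genes tested. Their median log2 fold change was 0.88, and 6 passed the fold minimum, against 4.67% of all genes. The list also holds Nfkbia (0.50) and the chemokine genes Ccl3 (0.98) and Ccl4 (0.36). The highest were Ier2 (1.17), Btg2 (1.15) and Junb (1.08). Their summed level was 39366 to 45028 CPM in MRL/lpr and 23089 to 24423 CPM in MRL/mpj. As in the chaperone genes, replicate 3 was the lowest MRL/lpr library, at 0.74 above the MRL/mpj mean on the log2 scale against 0.94 and 0.93. Whether handling of the tissue differed between the strains has no measurement here, and the part of dissociation in the chaperone difference was not tested.

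Markers of other cells also differed between the strains, mostly at levels far below the microglia markers, and several of the sums rest on 1 gene of their list. The summed CPM of B and plasma cell markers was 23.6 to 27.1 in MRL/lpr and 9.65 to 11.4 in MRL/mpj, with 1 of 5 tested genes (Jchain) called higher. For T and NK cell markers the sums were 10.5 to 14.5 and 2.94 to 4.50, with 4 of 7 called higher, the T cell genes Cd3e, Cd3g, Cd4 and Cd8a. The NK cell genes Klrb1c and Ncr1 were not called, and Klrb1c had a log2 fold change below 0. Neutrophil markers summed to 330 to 372 against 260.2 to 305 CPM (2 of 5 called higher) and erythrocyte markers to 685 to 1134 against 610.3 to 674 CPM (1 of 5 called higher). Endothelial and pericyte markers summed to 1330.4 to 1549.8 against 1282 to 1313 CPM, with Flt1 higher by a log2 fold change of 0.36, Pdgfrb lower (it fell by 0.56) and the other 4 not called. Lower in MRL/lpr was the sum of ependymal and choroid plexus markers (343 to 356 against 1009 to 1087 CPM), of which 3 of 6 were called lower. These were the choroid plexus genes Ttr, Kl and Folr1, and most of the sum was Ttr (means of 302 against 942 CPM). The ependymal genes Foxj1, Tmem212 and Ccdc153 were not called, and Tmem212 and Ccdc153 had log2 fold changes above 0. The sum of neuron markers was also lower (11.1 to 12.8 against 23.8 to 26.2 CPM), with 2 of 5 called lower. The lower astrocyte sum (96.8 to 139 against 169 to 175 CPM) rests on Slc1a3, which fell by 0.98, while the other 4 genes did not pass and Gfap, Aldh1l1 and Gja1 had log2 fold changes above 0. In the lower monocyte sum (61.7 to 69.7 against 75.3 to 81.7 CPM), Chil3 fell by 1.59 and Plac8 rose by 2.22. Oligodendrocyte markers (122 to 144 against 130.5 to 155 CPM) and border macrophage markers (26.3 to 32.01 against 31.8 to 37.0 CPM) overlapped, with 1 gene of each list called lower. No marker was at 0 in all libraries. Over all genes tested, 11.1% were called higher and 9.06% lower. The part of these cells in the chaperone difference was not tested, nor was that of the lower mitochondrial share in MRL/lpr.

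Finally, genes were ranked by how closely their centred log2 CPM profile over the 6 libraries followed that of Hspa1a and Hspa1b summed, among 9290 genes with a mean of at least 10 CPM. The nearest were Pnrc1 (root mean square difference 0.0254), Lrrfip1 (0.0285), Ier5 (0.0315), Apobec1 (0.0328) and Egr1 (0.0330). Egr1 belongs to the early gene list and Ier5 to the heat-responsive list. With 6 libraries in 2 groups, such closeness mostly reflects a like size of the strain difference. The other members ranked from 12 for Hsph1, 94 for Bag3, 148 for Hsp90aa1 and 223 for Hspa8 to 266 for Hspd1, 321 for Dnajb1 and 476 for Hspe1. Hspb1 ranked 2237, far from the pair whose class it shares.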

How the data were processed

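The authors deposited whole-number read counts that were not normalized, together with FPKM for every library. Submitters' processing notes name cutadapt 1.9.3, HISAT2 2.0.4, Cuffdiff 2.2.1, Cufflinks and the build GRCm38, with no role or order. The counting tool and its strand setting are not given in the sources used here. The labels describe rRNA removal with a stranded total RNA kit, the study's methods purification of mRNA.

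Symbols and coordinates came from GENCODE M21 (GRCm38), which matched 55141 of 55401 identifiers. Counts were filtered with filterByExpr (minimum count 10, minimum total 15), scaled with TMM and compared with edgeR 4.0.16 in R 4.3.3 by its robust quasi-likelihood test without covariates, with Benjamini-Hochberg adjustment over all 19554 genes tested. CPM values are TMM scaled. The step was tested on simulated data. No pair of libraries agreed within counting noise, so all 6 were kept.

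Alternatives were DESeq2 1.42.0, limma 3.58.1 on log2(FPKM + 1) for genes with a mean FPKM of at least 1, other scalings, filters and dispersions, counts divided by 4, the HSP70 copies summed, a replicate block and the omission of each library in turn. Counting MRL/lpr replicates 1 and 2, the closest pair, as 1 library was added after the data were seen, as were the counts in the wider lists under each alternative.

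The chaperone genes, their classes, the wider lists, the early response list and the marker lists were chosen with earlier results of these data known. No list was tested as a set. Genes named from a wider list are up to 3 with the largest increases and up to 3 with the largest decreases among those called, along with Hsf1, Hsp90ab1, Hspa5 and the 5 nearest profiles. Other named genes were chosen after their values were seen. Results for 1 gene under this rule are not reported here.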

Additional observations from a re-analysis of the deposited data

How the results depend on the processing

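Of 179 log2 fold changes of the chaperone genes under alternatives, 178 kept their direction and their side of the threshold and none reversed. The exception was Hspe1 with limma on log2(FPKM + 1) (0.42, adjusted p = 0.0733 in limma), which left 8 of the 10 genes called. Hspb1 passed in 0 of 18 alternatives, DESeq2 among them, with a lowest adjusted p of 0.0568 without MRL/lpr replicate 3. At the fold minimum, 3 of the genes passed, 2 with scaling by library size only or with limma on FPKM, and 4 without MRL/lpr replicate 3. With Hspa1a and Hspa1b summed, 2 passed, because the pair lay at 0.93. The place of Hspa1a past the fold minimum thus depends on the uncertain split between the copies. The excess of the inducible over the constitutive class (0.20 from fitted log2 fold changes) was 0.10 with Hsp90aa1 and Hsph1 moved to the constitutive class and 0.33 without Hspb1, both by construction, and ran from 0.16 to 0.24 as each library was left out. Genes past both thresholds numbered 1630, and 568 with limma on log2(FPKM + 1), of which the cause was not tested, while leaving out a library gave 1398 to 1650. Wider-list genes called lower numbered 9, against 14 with scaling by library size only, which shifts all log2 fold changes down, and 5 with the replicate block. As each library was left out they numbered 5 to 9. Those called higher numbered 14, and from 11 to 19 under the alternatives.

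Replicate numbers did not pair the libraries: over 11122 genes the deviations of same-numbered libraries had correlations of -0.09, -0.07 and -0.13. With the replicate block, 1422 genes passed both thresholds, and 9 chaperone genes were still called higher with a class excess of 0.21. Depth does not limit the chaperone genes, whose lowest count in any library was 7653.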
